A study of Arabidopsis thaliana with 6 samples.

Results

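Transcripts of 10 CONSTANS-like B-box genes were compared between 3 libraries of the hy5-215 mutant (libraries 4, 5 and 6) and 3 libraries of wild type, labelled Col_0 (libraries 1, 2 and 3). The genes were taken by locus identifier from 26984 genes in the tables: CO (also BBX1), COL1 (BBX2), COL2 (BBX3), COL3 (BBX4), COL4 (BBX5), COL5 (BBX6), BBX14, BBX15, BBX16 and BBX17. All 10 were present. Both groups were whole Arabidopsis thaliana seedlings of 7 days, grown in short days and sampled at zeitgeber time 20 h, which is in the night. Wild type differs from the mutant, as far as the labels go, only in HY5, a basic leucine zipper factor that promotes light-dependent seedling development. The labels name a lone mutant allele and do not say how many seedlings were pooled or whether libraries came from separate plantings. The p-values therefore rest on the spread among these libraries alone, part of which may be technical.

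B-box proteins carry zinc-binding domains near the amino terminus, and the genes described here also encode a carboxy-terminal CCT domain (named for CONSTANS, CONSTANS-like and TOC1). CO to COL5 have a pair of B-boxes, and BBX14 to BBX17 have a lone B-box. CO is the best known of them: its messenger RNA follows the circadian clock, its protein is degraded in the dark by the COP1-SPA ubiquitin ligase, and in light at the end of long days it activates the florigen gene FT in leaves. COL3 promotes photomorphogenesis and its protein binds COP1, while others of the family affect flowering time, the clock or greening.

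Values are FPKM, fragments per kilobase of gene and scaled to mapped fragments. The annotation behind the gene lengths is not given, so comparisons of levels between genes are approximate. FPKM sums per library lay between 528554 and 556418. Absolute depth is unknown. The most frequent ratio among genes up to 0.15 FPKM placed the other 5 libraries at 0.938 to 1.03 times the depth of Col_0 1. Only ratios near equal depth were searched, so a larger difference could not have been seen. HY5 itself stood at 3.04, 1.88 and 3.02 FPKM in hy5 4, 5 and 6, against 13.4, 13.0 and 13.9 FPKM in Col_0 1, 2 and 3. HYH, the closest homolog of HY5, had 2.51, 3.49 and 2.08 FPKM in hy5, against 23.3, 25.4 and 26.3 FPKM in Col_0. Markers of green tissue and of root were present in every library. The root sums separated by genotype, while the green tissue sums overlapped. The 5 CASP genes of the root endodermis summed to 126.8, 104.9 and 121.7 FPKM in hy5, against 60.6, 46.6 and 75.6 FPKM in Col_0, and all 5 rose. Of 4 Rubisco small subunit genes, near-identical copies that mark green tissue, 2 fell and none rose, with sums of 18006, 21325 and 17238 FPKM in hy5, against 20423, 22590 and 25779 FPKM in Col_0. Log2 fold changes are those of FPKM + 1, with hy5 over Col_0, and the added 1 shrinks the changes of weakly expressed genes. Adjusted p-values are Benjamini-Hochberg values from limma over the 17205 genes that reached 1 FPKM in 3 or more libraries, with a threshold of 0.05. Standard deviations are over n = 3 libraries per genotype.

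Of the 10 genes, 9 passed the filter on low values. COL5 and BBX17 rose in hy5, COL2 and COL3 fell, and the other 5 did not pass the test. These 4 calls were 44.4% of the 9 tested, beside 22.8% of all tested genes called in either direction (11.7% higher and 11.1% lower). Of the 9 tested, 3 had no overlap between genotypes, a share no higher than the 40.2% of all tested genes. Over all genes, 3915 were called, against 2297 without hy5 4 and 2145 without hy5 6. The median log2 fold change of the 9 was -0.05, against -0.00094 over all tested genes, so the group did not share a direction. In bulk seedling RNA, fewer cells of a type and less RNA per cell cannot be told apart. The part of the root and green tissue marker differences in these 4 calls was not tested.

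**Figure D1:**
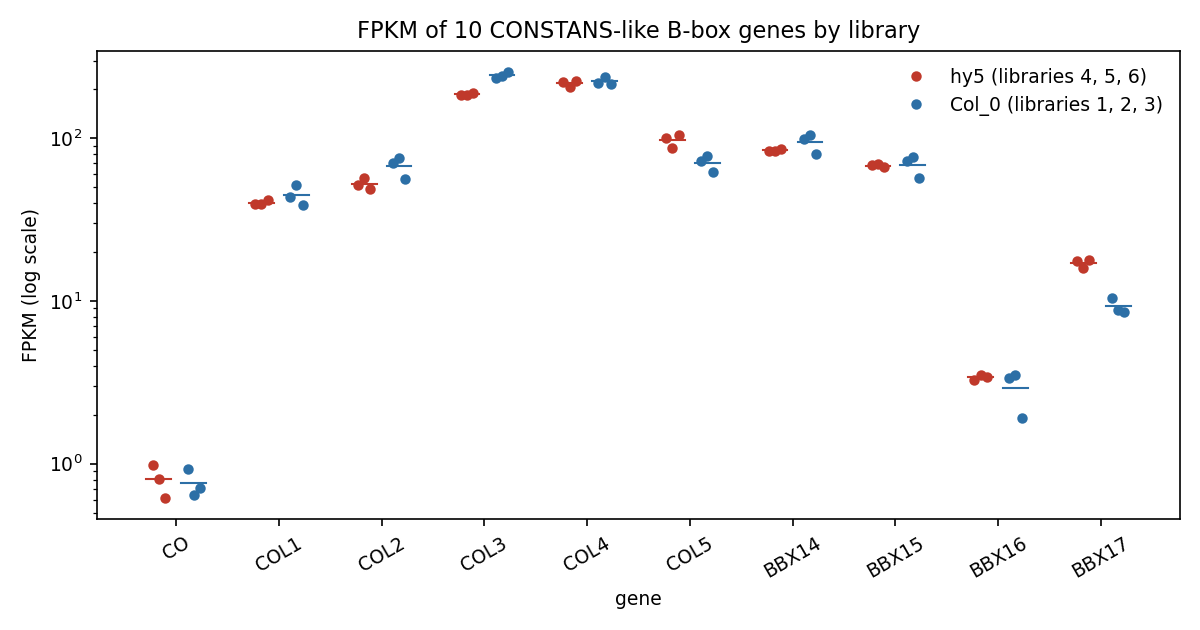
FPKM of each gene (log scale) in the hy5 libraries (red, left) and Col_0 libraries (blue, right), with points for libraries and bars for means. The hy5 points lie wholly below Col_0 for COL3 (highest 189.9 against lowest 235.2 FPKM) and wholly above it for COL5 and BBX17.

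The sequences just upstream of the 3 genes whose libraries separated by genotype are shown first, since HY5 binds DNA at motifs with an ACGT core. Each is the 250 bases before the annotated gene start, in RefSeq TAIR10.1, read 5′ to 3′ on the gene's strand. COL3 lies on the plus strand with its window at chr2:10566586-10566835, COL5 on the plus strand at chr5:23355087-23355336, and BBX17 on the minus strand at chr1:18176390-18176639. Capitals mark ACGT, its longer form CACGTG (the G-box) and AAAATATCT (the evening element bound by clock factors), each searched on both strands.
COL3: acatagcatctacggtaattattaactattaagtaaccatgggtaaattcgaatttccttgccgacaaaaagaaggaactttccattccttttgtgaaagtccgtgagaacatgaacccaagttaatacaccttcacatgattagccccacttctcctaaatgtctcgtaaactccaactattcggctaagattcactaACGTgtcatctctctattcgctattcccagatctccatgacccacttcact
COL5: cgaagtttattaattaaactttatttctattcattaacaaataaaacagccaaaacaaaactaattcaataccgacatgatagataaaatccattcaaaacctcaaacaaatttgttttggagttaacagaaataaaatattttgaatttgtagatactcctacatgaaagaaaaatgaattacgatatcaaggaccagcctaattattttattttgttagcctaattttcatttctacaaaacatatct
BBX17: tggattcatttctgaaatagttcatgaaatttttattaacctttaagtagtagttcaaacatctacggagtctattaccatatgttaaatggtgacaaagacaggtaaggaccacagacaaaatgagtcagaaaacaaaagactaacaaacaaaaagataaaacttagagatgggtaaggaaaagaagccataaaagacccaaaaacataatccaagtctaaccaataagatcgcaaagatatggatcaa
COL3 held 1 ACGT, whose first base was at -51 from the gene start, and COL5 and BBX17 held none of these motifs. Among 26983 promoters of the same length, 44.0% held ACGT, 6.5% held CACGTG and 2.3% held AAAATATCT. Of the 10 genes, 3 held ACGT (COL3, COL4 and BBX16), COL4 alone held CACGTG, at -169, and COL2 alone held AAAATATCT, at -189. The ACGT count includes the core of the COL4 G-box. The annotated start of COL4 has no untranslated exon, so its window ends at the coding sequence. The COL2 window overlaps annotated neighbours and is not printed. Binding by HY5 was not measured, so a motif in a window does not show that HY5 acts there. The absence of these letters says nothing about binding outside the window.

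COL3 (AT2G24790), on chromosome 2 at 10566836 to 10568145 with 2 merged exons, was the highest of the 10 genes in wild type. It had 184.4, 185.6 and 189.9 FPKM in hy5 4, 5 and 6, against 235.2, 240.2 and 255.2 FPKM in Col_0 1, 2 and 3. Every hy5 library was below every Col_0 library, a separation seen downward in 19.5% of all tested genes. The mean was 186.6 ± 2.92 FPKM in hy5 and 243.5 ± 10.4 FPKM in Col_0, a ratio of 0.766. The log2 fold change was -0.38 (SE 0.08, 95% interval -0.56 to -0.21, limma adjusted p = 0.0047). COL3 had the narrowest relative spread of all 10 genes in wild type, at 4.27% of its mean.

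COL4 (AT5G24930), whose product is linked to the timing of flowering and to abscisic acid and salt responses, is the closest relative of COL3 in sequence (79.9% identity over 283 aligned nucleotides). It lies on chromosome 5 at 8589457 to 8590949. It had 221.6, 206.4 and 223.5 FPKM in hy5 4, 5 and 6, against 219.1, 239.1 and 216.6 FPKM in Col_0 1, 2 and 3. The genotypes overlapped, and the log2 fold change was -0.05 (95% interval -0.23 to 0.13, limma adjusted p = 0.71). The ratio of COL3 to COL4 within a library does not depend on scaling between libraries. It was 0.832, 0.899 and 0.850 in hy5 4, 5 and 6, against 1.07, 1.0 and 1.18 in Col_0 1, 2 and 3. COL3 was thus below COL4 in each mutant library and above it in each wild-type library. In Col_0 2 they were nearly equal (240.2 against 239.1 FPKM). Whether such a ratio lies above 1 depends on the gene lengths used. The ratios separated by genotype (exact two-sided permutation p = 0.1, and 0.15 after adjustment over 6 such ratios). A p of 0.1 is the smallest that 3 against 3 libraries can give.

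COL5 (AT5G57660), for which raised expression is known to promote flowering in short days, moved the other way. The gene lies on chromosome 5 at 23355337 to 23356989. It had 100.9, 86.6 and 104.2 FPKM in hy5 4, 5 and 6, against 72.0, 77.4 and 61.8 FPKM in Col_0 1, 2 and 3. The lowest hy5 library was above the highest Col_0 library, which holds upward for 20.6% of all tested genes. The mean was 97.2 ± 9.32 FPKM in hy5 and 70.4 ± 7.91 FPKM in Col_0, a ratio of 1.38. The log2 fold change was 0.46 (SE 0.10, 95% interval 0.24 to 0.68, limma adjusted p = 0.0063). The ratio of COL5 to COL3 within a library was 0.547, 0.467 and 0.548 in hy5, against 0.306, 0.322 and 0.242 in Col_0. COL5 was higher and COL3 lower in every hy5 library, so these ranges could not overlap. The exact two-sided permutation p of 0.1 (adjusted 0.15) is therefore no separate evidence. The ratio of COL5 to COL4 averaged 0.447 ± 0.024 in hy5 and 0.313 ± 0.024 in Col_0, with the same p-values.

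CO and COL1 are neighbours on the minus strand of chromosome 5, with 3005 nucleotides between them and no gene wholly inside that gap. An annotated antisense RNA, AT5G15845, runs across the gap and shares 5 exonic bases with CO. CO (AT5G15840), at 5170162 to 5173085, was the lowest of the 10 genes in both genotypes and did not pass the filter. It had 0.986, 0.808 and 0.618 FPKM in hy5 4, 5 and 6, against 0.933, 0.640 and 0.711 FPKM in Col_0 1, 2 and 3. The genotypes overlapped, and the difference in mean log2(FPKM + 1) was 0.03 (exact two-sided permutation p = 0.8). With no filter on low values, its limma adjusted p was 0.88. Of the merged exonic bases of CO, 25.2% are shared with AT5G15843 on the opposite strand, which had at most 0.982 FPKM in any library. Whether the counting used strand is not given in the sources used here, so reads of the pair cannot be told apart.

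COL1 (AT5G15850), at 5176091 to 5177897, shortens the circadian period when overexpressed. It had 39.4, 39.5 and 41.9 FPKM in hy5 4, 5 and 6, against 43.6, 51.9 and 38.7 FPKM in Col_0 1, 2 and 3. The hy5 range lay inside the Col_0 range, and the log2 fold change was -0.14 (95% interval -0.36 to 0.09, limma adjusted p = 0.37). All of its exonic bases are also covered by the antisense RNA AT5G15845, which was not analysed here. Despite lying side by side, COL1 was at 40.3 ± 1.46 FPKM in hy5 and 44.7 ± 6.66 FPKM in Col_0, while CO was at 0.804 ± 0.18 FPKM in hy5 and 0.762 ± 0.15 FPKM in Col_0.

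COL2 (AT3G02380) lies on chromosome 3 at 487069 to 489467 and, like COL1, is a close relative of CO with a clock-dependent transcript. It had 52.0, 57.2 and 48.4 FPKM in hy5 4, 5 and 6, against 70.0, 75.3 and 56.1 FPKM in Col_0 1, 2 and 3. The ranges overlapped, because hy5 5 was above Col_0 3. The mean was 52.5 ± 4.41 FPKM in hy5 and 67.1 ± 9.92 FPKM in Col_0, and the log2 fold change of -0.34 passed narrowly (SE 0.11, 95% interval -0.58 to -0.10, limma adjusted p = 0.04). It no longer passed without hy5 4 (limma adjusted p = 0.11), hy5 6 (0.17), Col_0 1 (0.12) or Col_0 2 (0.15), and when genes were not filtered on low values (0.079). The ratio of COL2 to COL1 was 1.32, 1.45 and 1.15 in hy5, against 1.60, 1.45 and 1.45 in Col_0 (exact two-sided permutation p = 0.2, adjusted 0.2). Opposite-strand neighbours share 22.4% and 9.4% of its exonic bases, and they stood at no more than 0.411 and 3.62 FPKM.

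**Figure D2:**
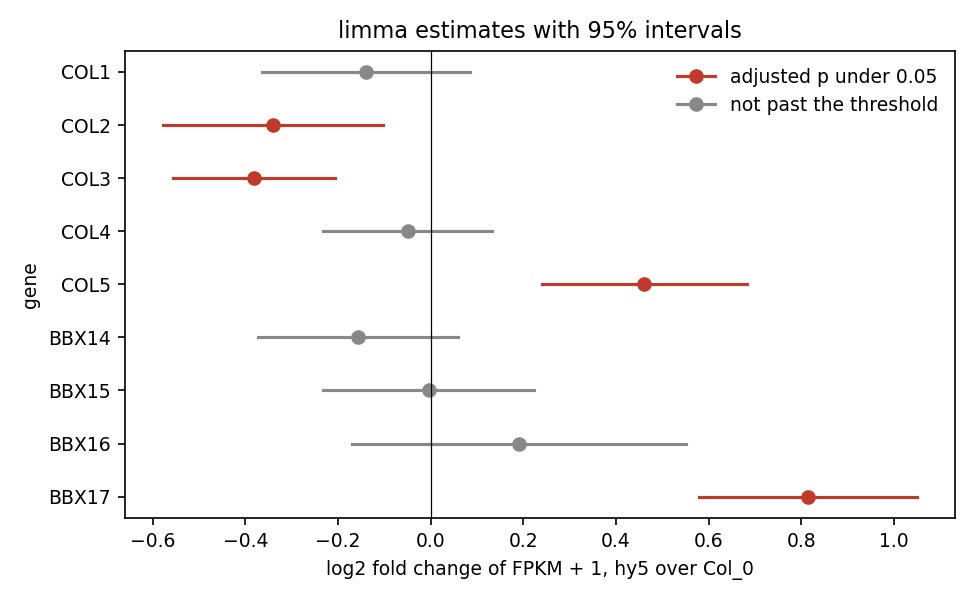
Log2 fold change of FPKM + 1 (hy5 over Col_0, horizontal axis) for the 9 tested genes, with 95% intervals from limma. The intervals of COL2, COL3, COL5 and BBX17 exclude 0, and that of BBX17 lies highest, from 0.58 to 1.05.

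Among the genes with a lone B-box, BBX17 rose and the other 3 did not pass. BBX17 (AT1G49130), also called COL8, delays flowering when overexpressed, and is encoded on chromosome 1 at 18174373 to 18176389, minus strand. It had 17.5, 15.8 and 17.8 FPKM in hy5 4, 5 and 6, against 10.5, 8.77 and 8.60 FPKM in Col_0 1, 2 and 3. Every hy5 library was above every Col_0 library. The mean was 17.1 ± 1.05 FPKM in hy5 and 9.29 ± 1.05 FPKM in Col_0, a ratio of 1.84. The log2 fold change of 0.81 was the largest of the 9 (SE 0.11, 95% interval 0.58 to 1.05, limma adjusted p = 0.0002). An opposite-strand neighbour, CRF9, shares 2.3% of its exonic bases and was listed at 0 in all 6 libraries. The tested genes whose log2(FPKM + 1) ran most like BBX17 over the 6 libraries were AT3G48760 (Pearson r = 0.999), LACS3, a long-chain acyl-CoA synthetase gene (0.9986), and PLC4, a phospholipase C gene (0.9977). These correlations are carried by the difference between genotypes and are given as a description. For COL4, whose mean over all libraries was the highest of the 10, the closest were RPN13 (0.9977), PARG2 (0.9868) and AT5G43450 (0.9863). These too were over the same 6 libraries, and COL4 itself did not pass the test between genotypes. For both genes the values are the highest in a search of all tested genes, and they are only a description.

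BBX16 (AT1G73870), also called COL7, is linked to greening and to branching under shade. It lies on chromosome 1 at 27778984 to 27780809. It had 3.29, 3.51 and 3.39 FPKM in hy5 4, 5 and 6, against 3.36, 3.52 and 1.90 FPKM in Col_0 1, 2 and 3. Only Col_0 3 stood apart, and the log2 fold change was 0.19 (95% interval -0.17 to 0.55, limma adjusted p = 0.45). Without Col_0 3 it was -0.01 (limma adjusted p = 0.94), and without Col_0 2 it was 0.31 (0.26). The ratio of BBX17 to BBX16 was 5.32, 4.52 and 5.25 in hy5, against 3.13, 2.49 and 4.53 in Col_0. These ranges overlapped at Col_0 3 (exact two-sided permutation p = 0.2, adjusted 0.2).

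BBX14 and BBX15 gave the longest alignment among the lone B-box genes (68.7% identity over 966 nucleotides), and both have been linked to chloroplast signals. Shorter alignments to BBX15 had 78.1% identity over 128 nucleotides for BBX16 and 77.0% over 122 for BBX17. BBX14 (AT1G68520), on chromosome 1 at 25708175 to 25710989, had 83.9, 83.6 and 85.6 FPKM in hy5 4, 5 and 6, against 99.4, 104.7 and 80.3 FPKM in Col_0 1, 2 and 3. Its hy5 values were nearly equal and lay inside the wild-type range. The log2 fold change was -0.16 (95% interval -0.37 to 0.06, limma adjusted p = 0.28), and it depended on the wild-type libraries. Without Col_0 3 it was -0.27 and passed (limma adjusted p = 0.023), while it was -0.12 without Col_0 1 (0.51) and -0.08 without Col_0 2 (0.65). BBX15 (AT1G25440), on chromosome 1 at 8933716 to 8935544, had 68.2, 69.4 and 66.3 FPKM in hy5 4, 5 and 6, against 72.0, 77.2 and 57.0 FPKM in Col_0 1, 2 and 3. Its interval spanned 0 nearly evenly (-0.23 to 0.22, limma adjusted p = 0.98). The ratio of BBX14 to BBX15 was 1.23, 1.20 and 1.29 in hy5, against 1.38, 1.36 and 1.41 in Col_0. Within a library BBX14 was thus lower relative to BBX15 in all 3 mutant libraries (exact two-sided permutation p = 0.1, adjusted 0.15). The 6 ratios were chosen after the values were seen.

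For none of the 10 genes did blastn align the exons to another place in the nuclear genome over 50 nucleotides or more at 95% identity or above. Identity was taken over each whole alignment, so closer stretches inside longer, less similar alignments were not searched.

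The order of levels differed between the genotypes. In hy5 it ran COL4, COL3, COL5, BBX14, BBX15, COL2, COL1, BBX17, BBX16 and CO, and the ranges of 3 libraries did not overlap between any neighbours in that order. In Col_0 it ran COL3, COL4, BBX14, COL5, BBX15, COL2, COL1, BBX17, BBX16 and CO, with overlapping ranges between COL3 and COL4, between COL5 and BBX15, and between BBX15 and COL2. COL5 was above BBX14 in every hy5 library and below it in every Col_0 library. Summed over the 10 genes, FPKM was 772.1, 748.5 and 781.7 in hy5, against 826.1, 878.9 and 776.9 in Col_0, and the ranges overlapped. COL3 made up 24.3 ± 0.46% of that sum in hy5 and 29.6 ± 2.91% in Col_0. COL5 made up 12.7 ± 0.95% in hy5 and 8.49 ± 0.47% in Col_0, and BBX17 2.22 ± 0.09% in hy5 and 1.12 ± 0.14% in Col_0.

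Wild-type libraries varied more than mutant ones for 9 of the 10 genes, beside 64.1% of all tested genes, with relative SDs of 1.28% to 22.9% in hy5 and 4.27% to 30.6% in Col_0. Col_0 3 was the lowest wild-type library for 8 of the 10 genes, beside 51.2% of all tested genes. It stood at 0.552 times the mean of Col_0 1 and 2 for BBX16, 0.764 for BBX15, 0.772 for COL2, 0.787 for BBX14 and 0.811 for COL1, but at 1.07 for COL3. The same library was low for the morning clock genes LHY (0.695 times) and CCA1 (0.638 times). Between genotypes CCA1 did not pass (limma adjusted p = 0.1). Not every clock gene was low in Col_0 3, as COR27 stood at 1.23 times and ELF4 at 1.04 times. Col_0 3 also had the highest root marker sum of the wild-type libraries (75.6 FPKM, against 60.6 and 46.6 FPKM in Col_0 1 and 2). Its green tissue marker sum was the highest as well (25779 FPKM, against 20423 and 22590 FPKM). The part of this library's clock gene and tissue marker levels in the results for the B-box genes was not tested. COL3, COL5 and BBX17 passed the test without Col_0 3, and COL2 passed too.

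**Figure D3:**
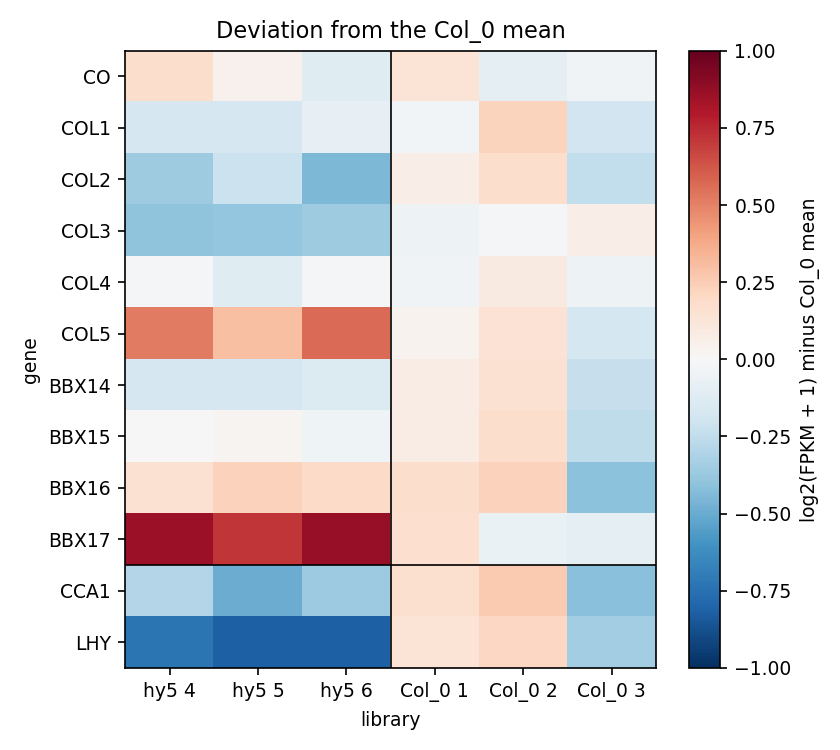
Deviation of log2(FPKM + 1) from the Col_0 mean in each library, for the 10 genes and, below the line, CCA1 and LHY; red is higher and blue lower. Col_0 3 is blue for most rows, while COL3 is lower and COL5 and BBX17 are higher in all 3 hy5 libraries.

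The genes that act with CO in day-length sensing showed no shared direction. Of 33 listed photoperiod genes, 32 were in the tables and 28 were tested, of which 5 rose and 3 fell, with a median log2 fold change of 0.07. The called share, 28.6%, was near the 22.8% of all tested genes. Without hy5 4 or without hy5 6, 3 rose, and without Col_0 3, 5 fell. FT, the target of CO, was listed at 0 in all 6 libraries, and its relative TSF was listed at 0 in all but hy5 5 (0.0555 FPKM). COP1 was not analysed here. Some Dof-type factors repress CO. Of those listed, AT1G69570 had 10.8, 9.07 and 12.3 FPKM in hy5, against 3.89, 3.04 and 1.89 FPKM in Col_0 (log2 fold change 1.60, SE 0.18, limma adjusted p = 6.3e-05). CDF3 had 8.40, 8.19 and 7.83 FPKM in hy5, against 4.54, 4.49 and 3.43 FPKM in Col_0 (0.83, SE 0.13, limma adjusted p = 0.00052). In both cases every hy5 library was above every Col_0 library, while CO overlapped between genotypes. The other Dof genes named here, CDF2 and CDF1, were added after their values were seen. CDF2 also rose, with 24.5, 21.5 and 25.1 FPKM in hy5, against 18.8, 17.1 and 11.7 FPKM in Col_0 (0.57, SE 0.15, limma adjusted p = 0.015). CDF1 did not pass and its ranges overlapped, with 7.27, 7.43 and 6.53 FPKM in hy5, against 7.99, 8.92 and 6.11 FPKM in Col_0 (log2 fold change -0.09, 95% interval -0.38 to 0.20, limma adjusted p = 0.67). PHYA, which protects CO from degradation, rose (limma adjusted p = 0.0026), and TPL, a corepressor, fell (0.0041). GI and FKF1, which remove those Dof repressors in the afternoon, were under the filter. GI had 0.833, 0.805 and 0.906 FPKM in hy5, against 0.208, 0.306 and 0.263 FPKM in Col_0, a separation with a limma adjusted p of 0.0033 when no filter was applied. FKF1 had 0.268, 0.0867 and 0.342 FPKM in hy5, against 0.0865, 0.204 and 0.117 FPKM in Col_0, and did not pass (0.43 with no filter).

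Clock genes, which set the daily course of most CONSTANS-like transcripts, were called in 10 of 19 tested cases, 6 higher and 4 lower, with a median of 0.13. That is 52.6%, beside 22.8% of all tested genes (11.7% higher and 11.1% lower). Without Col_0 3, 7 were lower. With a filter at 5 FPKM, 2 were higher, and the other called rises, PRR5 among them, were under that filter and not tested. LHY, a morning repressor, had 86.1, 80.8 and 80.9 FPKM in hy5, against 157.8, 165.6 and 112.3 FPKM in Col_0 (log2 fold change -0.79, SE 0.13, limma adjusted p = 0.00099). PRR5, a daytime repressor, had 3.85, 3.48 and 3.57 FPKM in hy5, against 1.55, 2.08 and 1.60 FPKM in Col_0 (0.76, SE 0.14, limma adjusted p = 0.0017). Of the evening complex, PCL1 (also LUX) rose with a log2 fold change of 0.72 (limma adjusted p = 0.00043), and ELF4 fell with -0.70 (0.0017). The part of these clock gene differences in those of the B-box genes was not tested.

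The other 22 B-box genes gave 3 that rose and 3 that fell among 17 tested (35.3%, beside 22.8% of all tested genes), with a median of -0.04, close to the -0.05 of the CONSTANS-like genes. The smallest p-values were those of BBX32 (log2 fold change -0.85, limma adjusted p = 0.00054), BBX28 (0.77, 0.00065), STH, also BBX25 (-0.44, 0.0031), and BBX21 (0.38, 0.0078). Without hy5 6, BBX21 no longer passed (limma adjusted p = 0.052), and 1 of these genes rose.

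**Figure D4:**
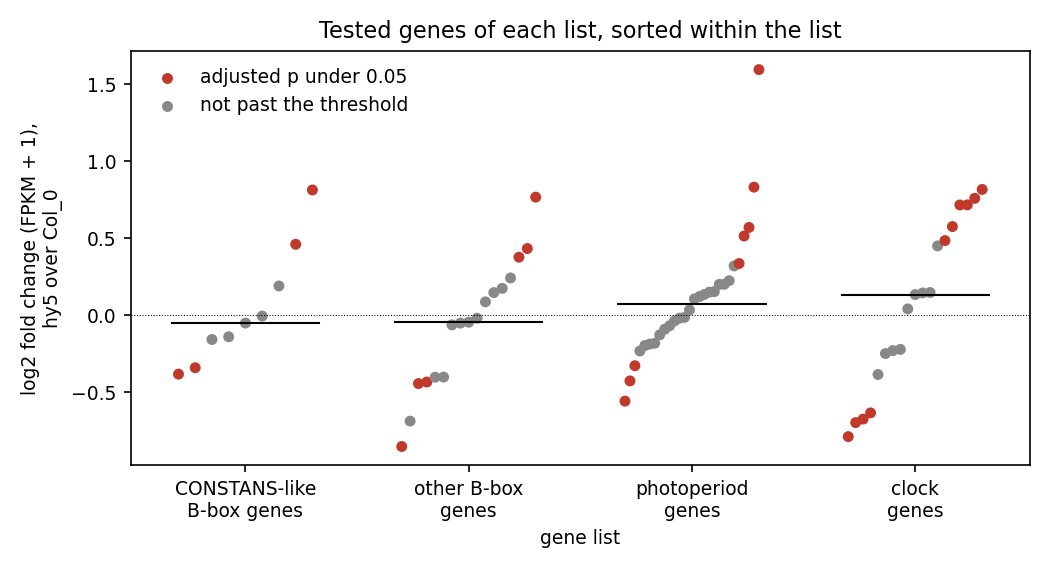
Log2 fold change of FPKM + 1 (hy5 over Col_0, vertical axis) for every tested gene of 4 lists, with a bar at each median. The CONSTANS-like genes run from -0.38 (COL3) to 0.81 (BBX17), inside the span of the clock and photoperiod lists.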

How the data were processed

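The 6 libraries were grouped by the genotype in their titles (3 hy5, 3 Col_0). The authors deposited FPKM per gene and library, per the file headers. Tools listed without roles in the submitters' processing notes are Cufflinks, Bowtie2, TopHat, DESeq 1.18.0, HISAT2 2.2.1.0 and Trimmomatic 0.36, and the listed build is TAIR10. Not given in the sources used here are the annotation, the treatment of multi-mapping reads and the use of strand. Since FPKM hides read counts, the precision of low genes is unknown.

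All 26984 identifiers matched locus tags of RefSeq TAIR10.1, which supplied symbols, coordinates and promoter sequence. Values were taken as log2(FPKM + 1), and the 17205 genes that reached 1 FPKM in 3 or more libraries were fitted with limma 3.58.1 in R 4.3.3, with genotype as the only term and trended, robust empirical Bayes. P-values were adjusted by Benjamini-Hochberg over all tested genes. The fit was tested on simulated data. Ratios and CO, which was under the filter, were compared by exact two-sided permutation. Relative depth used genes up to 0.15 FPKM and searched only ratios near equal depth. Tables and figures used Python 3.11.15, matplotlib 3.10.9, pandas 2.3.3 and NumPy 2.4.6, and similar loci were sought with blastn.

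The members and lists were chosen with earlier results of these data known. Named genes were all 10 members, HY5, HYH, FT, TSF, GI, FKF1 and COP1, and up to 4 called genes with the smallest p from each context list, with the 3 closest patterns for 2 members. The within-library ratios, the evening element and the root and green tissue markers were chosen after values were seen, as were CCA1, CDF1 and CDF2. Alternatives were pseudocounts of 0.1 and 5, a filter at 5 FPKM or none, 3 scalings (median ratio, upper quartile and quantile), plain empirical Bayes and leaving out each library.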

Additional observations from a re-analysis of the deposited data

How the results depend on the processing

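The 2 genes that rose, COL5 and BBX17, and COL3, which fell, passed under every alternative run. Their log2 fold changes ranged from 0.37 to 0.54 for COL5 (limma adjusted p 0.0048 to 0.039), from 0.63 to 0.90 for BBX17 (0.00016 to 0.0019) and from -0.41 to -0.35 for COL3 (0.003 to 0.033). The count of members that fell was 1 with no filter on low values and 1 with plain empirical Bayes, the lost call being COL2 (limma adjusted p = 0.079 and 0.091), and it ranged from 1 to 3 when a library was left out. It was 3 without Col_0 3, where BBX14 joined. Among all tested genes, leaving out a library gave 1061 to 2055 higher and 1084 to 2360 lower calls, with the fewest without hy5 6 (1061 and 1084), then without hy5 4 (1141 and 1156). No scaling moved the median of all genes by more than 0.01 on the log2 scale, and none changed a call of the 9 tested members. The other B-box and photoperiod counts moved by over 1.5 times only where a library was left out. The clock counts did so with a filter at 5 FPKM (2 higher, the other rises being under that filter) and without Col_0 3 (7 lower). The labels give no pairing of libraries across genotypes, so no paired analysis was made. Absolute depth is unknown, so no detection limit could be set for CO, GI, FKF1, FT and TSF, whose levels were under 1 FPKM.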
